A study of Mus musculus with 18 samples.

Results

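The small RNA of sperm from the second generation of an exposed mouse line (F2 NHS) was set against that of the directly exposed founder males (F0 NHS), 6 of the 18 libraries of the series with 3 in each group, chosen by their group labels alone. All males were ICR mice, an outbred strain. The F0 NHS fathers were exposed to ammonia (NH3) and hydrogen sulphide (H2S) over 5 weeks, beginning at an age of 3 weeks, before mating with females that had no exposure. Their F1 sons had no exposure of their own and sired the F2 males at 8 weeks, and the F2 NHS males had none. F0 Con and F2 Con, the untreated control males of the same generations with 3 libraries each, give the step from F0 to F2 without exposure. The labels do not state that replicates are separate animals, and the p-values thus refer to the spread among libraries, part of which may be technical. F0 and F2 males also differ in everything that differs between generations, such as birth date and parents, and within the NHS line this cannot be told apart from direct exposure.

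MicroRNAs (miRNAs) are single-stranded RNAs of about the length of a siRNA that are cut from the 5p or 3p arm of a hairpin precursor and guide Argonaute proteins to messenger RNAs through their seed, the bases after the first at the 5′ end. Sperm lose most of their cytoplasm, keep small RNA from meiotic and haploid germ cells and gain more from vesicles of the epididymal epithelium. Known sperm miRNAs include miR-34 and miR-449 of germ cells and multiciliated cells, the X-linked miR-506 superfamily of the testis, and the let-7 and miR-200 families. piRNAs are longer, usually begin with U and guide PIWI proteins of the germ line against transposons. In bulk RNA, fewer cells of a type and less RNA per cell cannot be told apart.

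The 6 NHS libraries held 21158940 to 29430555 reads. Values are tags per 1000000 reads of the library (TPM), so 1 TPM stands for at least 21.2 reads in these libraries. Known miRNA names were summed over both arms and all copies of a precursor, which gave 971 precursors listed in any of the 6 libraries and 567 listed in all 6. The other classes were predicted by the authors: 5353 miRNAs, 4900 siRNAs and 320355 piRNAs were listed in any of the 6 libraries, and 726, 82 and 1078 in all 6. Known piRNAs and structural RNA families were not tested, because the lists of F2 NHS replicates 2 and 3 end early in the deposited table. F0 NHS replicate 3 and F2 NHS replicate 1 stand apart in a fragment of alanine tRNA, at 2382 and 3293 TPM against 48.5 to 180.9 TPM in the other 4, so each group holds 1 such library. Over 461 precursors, the correlation of log2 values between 2 libraries was 0.911 to 0.974 within a group and 0.901 to 0.944 between F0 NHS and F2 NHS.

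In edgeR's test 1 known miRNA precursor, miR-1291, was higher in F2 NHS than in F0 NHS sperm and 0 were called lower, while DESeq2 called 15, with 7 higher and 8 lower. In edgeR's quasi-likelihood test at a Benjamini-Hochberg adjusted p under 0.05, 1 of 461 precursors was called (0.217%). At an unadjusted p under 0.05 the same test gave 59 precursors (12.8%), 30 higher and 29 lower in F2 NHS. The median log2 fold change over the 461 was -0.02 and the median of its absolute value 0.56, with 130 precursors (28.2%) past a 2-fold difference in either direction. The median standard error of a log2 fold change was 0.61.

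The mature sequences of the 11 precursors with the smallest p follow, because the account of single miRNAs turns on them. Each is from the arm with the highest mean TPM over the 6 libraries, by the deposited names. How reads were assigned to arms was not given in the sources used here, and the levels tested are sums over arms. Sequences are from RefSeq (build GRCm38.p6), 5′ to 3′, with the seed (bases 2 to 8) in capitals; 1472 of 1739 miRNA names in the files had a RefSeq mature sequence.
miR-1291: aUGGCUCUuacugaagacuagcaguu
miR-7a-2-3p: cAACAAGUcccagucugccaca
miR-871-3p: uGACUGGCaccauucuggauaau
miR-7234-3p: aAACGUCUuucuaggguagaagg
miR-6239: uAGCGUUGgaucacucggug
miR-155-3p: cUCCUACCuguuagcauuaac
miR-374b-5p: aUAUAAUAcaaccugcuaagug
miR-190b-5p: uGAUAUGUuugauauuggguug
miR-455-3p: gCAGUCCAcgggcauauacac
miR-615-3p: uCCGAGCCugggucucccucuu
miR-298-5p: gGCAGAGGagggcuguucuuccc
Each of these 11 sequences has a seed of its own. miR-1291 lies on chromosome 15 (chr15:98519828-98519853, minus strand), in an intron of Kansl2, a subunit gene of a histone acetyltransferase complex, and its hairpin lies inside the exon of Snora34, a box H/ACA small nucleolar RNA on the same strand. The 26 bases printed above occur without a mismatch in the Snora34 transcript, so reads from the miRNA and from the snoRNA cannot be told apart. miR-871 lies in the X-linked miR-506 superfamily, miR-374b in an intron of Ftx, a long noncoding RNA of the X-inactivation centre, and miR-155 in an exon of its host transcript Mir155hg. miR-455 lies in an intron of Col27a1, a fibrillar collagen gene, and miR-615 in an intron of the homeobox gene Hoxc5, both on the strand of the host.

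miR-1291 stood at 0.18, 0.068 and 0.331 TPM in F0 NHS and at 2.24, 7.89 and 1.61 TPM in F2 NHS. All F2 NHS libraries lay above all F0 NHS libraries, and F2 NHS replicate 2 was the highest. Its log2 fold change was 4.75 (SE 0.91, edgeR adjusted p = 0.0468), on 14 reads in the 3 F0 NHS libraries together and 296 in the 3 F2 NHS libraries. The control line held 1.45 to 2.24 TPM in F0 and 0.443 to 1.53 TPM in F2, so the F0 NHS libraries were the lowest of the 4 groups, and F2 NHS replicate 2 alone lay above all F0 Con libraries. Its call was lost without F0 NHS replicate 1, 2 or 3 or F2 NHS replicate 2, and in 7 of the other settings listed in the closing section, while its log2 fold change stayed between 3.73 and 5.29.

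**Figure D1:**
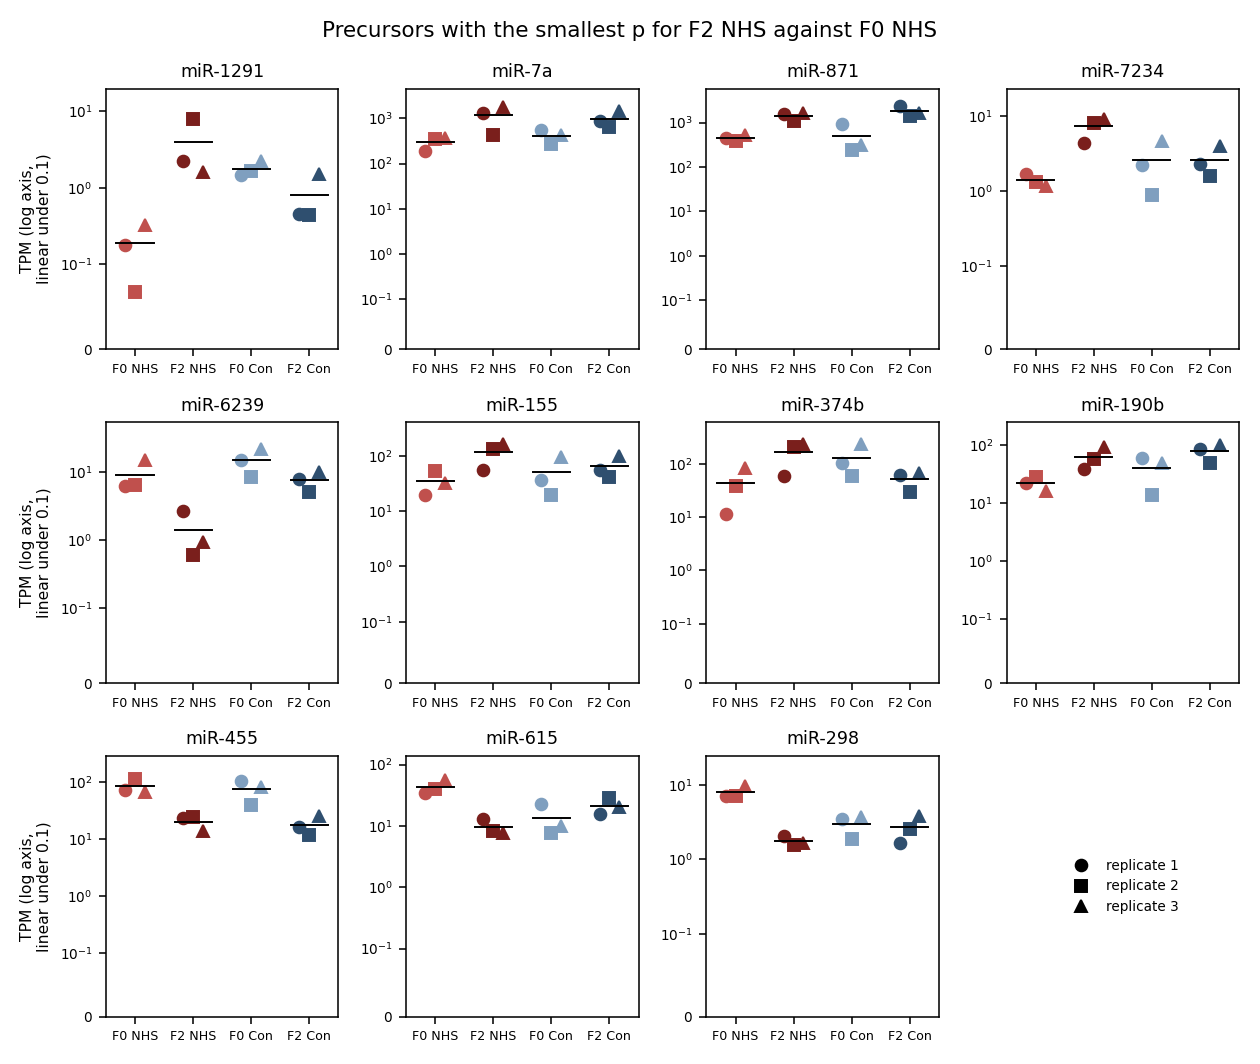
TPM on a log axis (linear under 0.1) of the 11 precursors with the smallest p, in the 3 libraries of each group; symbols are replicates and lines are group means. F2 NHS lies wholly above F0 NHS for miR-1291, miR-7a, miR-871, miR-7234, miR-155 and miR-190b and wholly below for miR-6239, miR-455, miR-615 and miR-298, and for miR-374b the groups overlap.

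The next 10 precursors by p did not pass in edgeR, and all 11 were among the 15 called by DESeq2. miR-7a, a miRNA known from neuroendocrine cells, stood at 188, 346 and 362 TPM in F0 NHS and at 1293, 427 and 1805 TPM in F2 NHS (log2 fold change 2.35, SE 0.49, edgeR adjusted p = 0.0551). F2 NHS replicate 2 was close to the F0 NHS libraries but still above them. In the control line miR-7a rose as well, from 275 to 539.5 TPM in F0 Con to 637 to 1424 TPM in F2 Con (log2 fold change 1.82, SE 0.49, edgeR adjusted p = 0.0409). miR-871 stood at 443, 386 and 523 TPM in F0 NHS and at 1593, 1099 and 1641 TPM in F2 NHS (2.05, SE 0.50, edgeR adjusted p = 0.111). The groups were far apart in every library, and the control line gave a log2 fold change of 2.49 (SE 0.51, edgeR adjusted p = 0.0141).

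miR-155, a miRNA of activated leukocytes, stood at 19.4, 53.3 and 32.9 TPM in F0 NHS and at 55.6, 133.5 and 162 TPM in F2 NHS (log2 fold change 2.06, SE 0.57, edgeR adjusted p = 0.151). The highest F0 NHS library was just below the lowest F2 NHS library. miR-374b stood at 11.49, 38.8 and 82.0 TPM against 59.9, 208.2 and 239 TPM (2.38, SE 0.66, edgeR adjusted p = 0.151), with 1 library of each group in the range of the other. Here the control line had a log2 fold change of -0.71 (SE 0.63, edgeR adjusted p = 0.482). miR-7234 was at 1.69, 1.33 and 1.18 TPM in F0 NHS and at 4.39, 8.13 and 9.27 TPM in F2 NHS, and miR-190b at 15.9 to 28.1 TPM and 37.7 to 91.9 TPM. Neither overlapped between the groups.

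The 4 precursors that were lower in F2 NHS among these were miR-6239, miR-455, miR-615 and miR-298. miR-615 stood at 34.6, 39.6 and 55.3 TPM in F0 NHS and at 12.8, 8.37 and 7.80 TPM in F2 NHS (log2 fold change -1.74, SE 0.52, edgeR adjusted p = 0.151). The control line went the other way, from 7.65 to 22.7 TPM in F0 Con to 15.5 to 28.9 TPM in F2 Con, and the difference between the lines was -3.11 (SE 0.72, edgeR adjusted p = 0.0732). miR-455 stood at 73.6, 116 and 66.3 TPM in F0 NHS against 23.2, 24.1 and 14.1 TPM in F2 NHS, with a log2 fold change of -1.70 (SE 0.49) that was close to the -1.47 (SE 0.49) of the control line. miR-298 was at 7.06 to 9.78 TPM in F0 NHS and at 1.57 to 2.04 TPM in F2 NHS, and miR-6239 at 6.20 to 15.3 TPM and 0.604 to 2.74 TPM. In TPM, 15 of the 461 precursors (3.25%) lay wholly above and 63 (13.7%) wholly below in F2 NHS, beside 38 (8.24%) and 128 (27.8%) in the control line. TPM is over all reads and is not scaled within the class. Known miRNAs held 43.6% of reads in F0 NHS and 34.4% in F2 NHS, and 49.9% in F0 Con and 27.4% in F2 Con. With TMM within the class, 230 of the 461 were higher and 231 lower in F2 NHS.

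The step from F0 to F2 called 46 of 461 precursors in the control line (9.98%), 21 higher (4.56%) and 25 lower (5.42%), against 1 in the NHS line. The difference of the 2 steps was tested directly, and edgeR called 0 of 461 precursors for it (smallest adjusted p = 0.0732), with 82 at an unadjusted p under 0.05 (17.8%) and 41 called by DESeq2. Leaving out any 1 of the 6 Con libraries left 3 to 16 calls in the control line. Among the precursors described here, the control line calls of miR-34b and miR-34c stood in 6 of these 6 fits. The call of miR-871 stood in 5 (lost without F2 Con replicate 1) and that of miR-497a in 3 (those without 1 F0 Con library). The miR-143 call stood in 2 (those without F0 Con replicate 1 or 3). Those of miR-451a and miR-200c stood in 1 (without F0 Con replicate 2) and that of miR-465c in 1 (without F0 Con replicate 1). The calls of miR-7a and miR-150 stood in 0. For the difference of the steps, edgeR called 30 precursors without F2 NHS replicate 1, 12 without F0 NHS replicate 3 and 1 without F0 Con replicate 2. The NHS and Con steps share no library, and across the 461 precursors their log2 fold changes had a Pearson r of 0.129 and a Spearman rho of 0.105, with the same sign in 242 (52.5%); precursors are not independent replicates. The 21 precursors that rose in the control line had a median log2 fold change of 2.47 there and of 0.60 in the NHS line, where 12 of 21 were higher. The 25 that fell had medians of -2.36 and -0.10, with 13 of 25 lower in F2 NHS. Both sets were chosen on the control line, which draws its own medians away from 0.

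**Figure D2:**
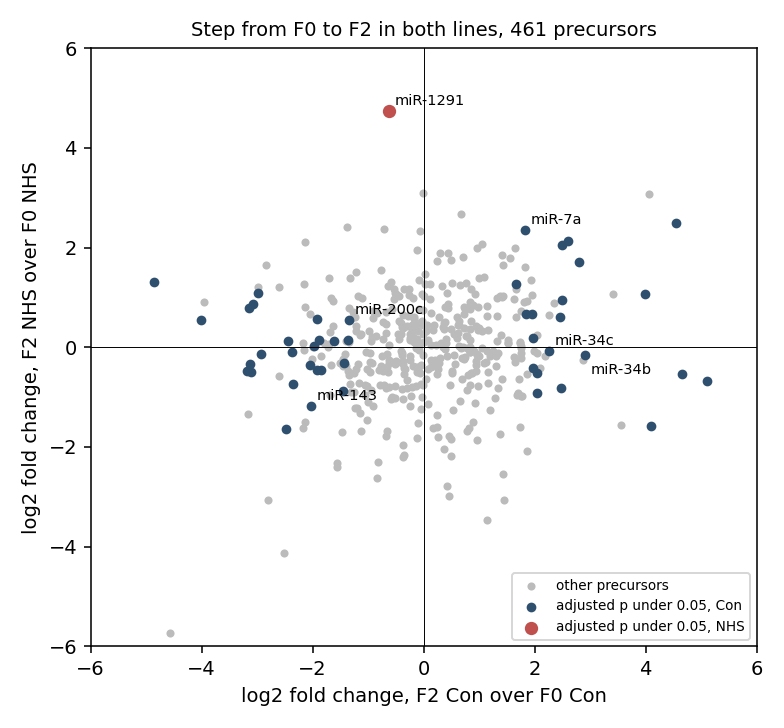
log2 fold change of F2 over F0 in the control line (x axis) and in the NHS line (y axis) for 461 precursors; dark points passed the edgeR test in the control line and the red point, miR-1291, in the NHS line. The dark points were chosen by the test on the x axis values, which draws them away from 0 there. On the y axis the precursors called in the control line lie between -1.64 and 2.49, with miR-34b and miR-34c near 0.

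miR-34b and miR-34c, which act in meiotic and haploid germ cells and are among the miRNAs a sperm carries to the egg, had the same 3p seed.
miR-34b-3p: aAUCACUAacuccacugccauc
miR-34c-3p: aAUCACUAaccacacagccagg
They are shown because miR-34b was among the 3 precursors with the smallest p for the difference of the steps. edgeR did not call that difference for either. Both lie on chromosome 9, within an intron of Btg4 on the opposite strand. miR-34b stood at 6232, 12297 and 3315 TPM in F0 NHS and at 6069, 5316 and 4417 TPM in F2 NHS. The F2 NHS libraries lay within the range of F0 NHS, and the log2 fold change was -0.15 (SE 0.50, edgeR adjusted p = 0.921). In the control line it rose from 1881 to 3931 TPM in F0 to 10602 to 17110 TPM in F2 (2.91, SE 0.54, edgeR adjusted p = 0.012), and the difference of the steps was -3.06 (SE 0.73, edgeR adjusted p = 0.0732). miR-34c stood at 5977, 5717 and 2862 TPM in F0 NHS and at 2589, 3302 and 5632 TPM in F2 NHS, again with overlapping groups (-0.07, SE 0.42, edgeR adjusted p = 0.951). Its control line rose by 2.25 on the log2 scale (SE 0.43, edgeR adjusted p = 0.012), and the difference of the steps was -2.32 (SE 0.59, edgeR adjusted p = 0.0732). Together with miR-34a and miR-449a, 4 members of this family were tested and 0 passed in the NHS line. The summed share of the family in miRNA reads was 1.69% to 5.32% in F0 NHS, 2.83% to 3.81% in F2 NHS, 1.28% to 1.61% in F0 Con and 6.002% to 11.2% in F2 Con.

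The most abundant precursor was miR-143, a miRNA of smooth muscle and stroma, at 76847, 45474 and 107157 TPM in F0 NHS and at 27280, 18053 and 31550 TPM in F2 NHS. All F2 NHS libraries were below all F0 NHS libraries, but the test did not call it (log2 fold change -1.18, SE 0.53, edgeR adjusted p = 0.366). It fell in the control line, by 2.04 on the log2 scale (SE 0.55, edgeR adjusted p = 0.0409). miR-143 alone made up 12.5% to 20.4% of miRNA reads in F0 NHS and was the first precursor of all 3 libraries there. In F2 NHS the first precursor was let-7c or miR-191, at 7.33% to 10.2%.

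Other abundant precursors overlapped between F0 NHS and F2 NHS, and none of them passed. miR-451a, the red blood cell miRNA that is cut by Argonaute 2 in place of Dicer, stood at 19828, 22799 and 35400 TPM in F0 NHS and at 13993, 8818 and 24086 TPM in F2 NHS (log2 fold change -0.36, SE 0.50, edgeR adjusted p = 0.806). In the control line it fell by 2.04 on the log2 scale (SE 0.52, edgeR adjusted p = 0.0388), from 68695, 9995 and 76735 TPM to 8130, 4287 and 11493 TPM. miR-200c, which keeps epithelial cells in their state by silencing Zeb1 and Zeb2, stood at 7643, 6254 and 11088 TPM in F0 NHS and at 6272, 12474 and 9089 TPM in F2 NHS (0.54, SE 0.35, edgeR adjusted p = 0.505). The control line fell by 1.34 on the log2 scale (SE 0.35, edgeR adjusted p = 0.0409), with a difference of the steps of 1.88 (SE 0.49, edgeR adjusted p = 0.0732). miR-26a lay between 22053 and 26729 TPM in F0 NHS and between 19492 and 22389 TPM in F2 NHS, and miR-191 between 22121 and 37664 TPM and between 17080 and 24315 TPM. miR-21a, a miRNA of many stressed tissues, was at 6167 to 10922 TPM in F0 NHS and at 5611 to 22812 TPM in F2 NHS.

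Grouped by family and cluster, members leaned in some lists and not in others, with 0 members past the edgeR test in every list against 0.217% of all precursors. Scaling by library totals, in place of TMM within the class, moved the median of all precursors to -0.38, and counts by library totals stand beside the others where they differ. Every one of 9 tested let-7 members was higher in F2 NHS (7 of 9 by library totals and 6 of 9 without F2 NHS replicate 3), and their median log2 fold change was 0.56 beside -0.02 over all precursors. let-7 silences growth and proliferation genes. let-7c stood at 22776 to 27262 TPM in F0 NHS and at 16309 to 39583 TPM in F2 NHS, let-7a at 7840 to 11179 TPM and 9299 to 19696 TPM, and let-7f at 2753 to 4501 TPM and 3714 to 17142 TPM. F2 NHS replicate 3 was the highest library for all 3 of these. let-7f had the largest of these log2 fold changes (1.74, SE 0.52, edgeR adjusted p = 0.151).

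For miR-30, 6 of 6 members were higher in F2 NHS (4 of 6 by library totals and 5 of 6 by DESeq2 or without any 1 library but F2 NHS replicate 1), with a median of 1.17, while 5 of 6 were lower in the control line (median -0.60). miR-30b stood at 378.9, 372 and 951 TPM in F0 NHS and at 492, 1122 and 3439 TPM in F2 NHS (1.94, SE 0.64, edgeR adjusted p = 0.204), and its groups overlapped. miR-30a stood at 664, 568 and 1082 TPM against 572, 1646 and 1434 TPM (1.04, SE 0.43, edgeR adjusted p = 0.316). Its control line had a log2 fold change of -1.18, and the difference of the steps was 2.22 (SE 0.61, edgeR adjusted p = 0.0732). miR-30d, the most abundant member, was at 4887 to 6695 TPM and 2379 to 6251 TPM, with a log2 fold change of 0.04 (SE 0.43).

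The 2 large rodent miRNA clusters with imprinted expression leaned in opposite directions. In the Sfmbt2 cluster, expressed in placenta from the paternal allele, 26 of 31 tested members were higher in F2 NHS (23 by library totals), at a median of 0.99 in a range of -0.75 to 2.41. Without F2 NHS replicate 3 that median was 0.32, with 24 of 31 higher. Its members are near-identical copies, so reads can be split between them, and the 3 most abundant differed in direction: the log2 fold change was 0.78 for miR-467e, -0.75 for miR-467a and 0.02 for miR-467c. In the Dlk1-Dio3 cluster, expressed from the maternal allele, 37 of 45 were lower in F2 NHS (41 by library totals), at a median of -0.50 in a range of -3.46 to 0.92. Without F2 NHS replicate 1 that median was -0.94, and by library totals -0.93. DESeq2 called 1 member, miR-376a, lower. miR-411 stood at 2583, 1938 and 855 TPM in F0 NHS and at 1558, 511 and 434.004 TPM in F2 NHS (-0.76, SE 0.60, edgeR adjusted p = 0.631). miR-127, the most abundant member, was higher in F2 NHS replicate 1, at 2470 TPM, than in replicates 2 and 3, at 495.4 and 922 TPM, and lay between 1186 and 2535 TPM in F0 NHS.

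In the X-linked miR-506 superfamily of the testis 13 of 18 members were higher in F2 NHS (median 0.44; 12 of 18 by library totals; median 0.24 without F0 NHS replicate 3), and 13 of 18 in F2 Con (median 0.84). miR-465c stood at 1944, 2423 and 1651 TPM in F0 NHS and at 4926, 2055 and 4437 TPM in F2 NHS (1.27, SE 0.48, edgeR adjusted p = 0.253). It rose in the control line by 1.67 on the log2 scale (SE 0.49, edgeR adjusted p = 0.042). miR-470 was at 459 to 1508 TPM and 484.9 to 1169 TPM. Among 10 tested miRNAs named in work on paternal stress, 6 were higher (median 0.70; 5 by library totals), and without F2 NHS replicate 1 the count was 5 of 10 with a median of 0.02. That list contains miR-34c, miR-30a and miR-449a, the last at 529, 641 and 607 TPM in F0 NHS and at 1171, 180.7 and 2617 TPM in F2 NHS (1.48, SE 0.73, edgeR adjusted p = 0.367).

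**Figure D3:**
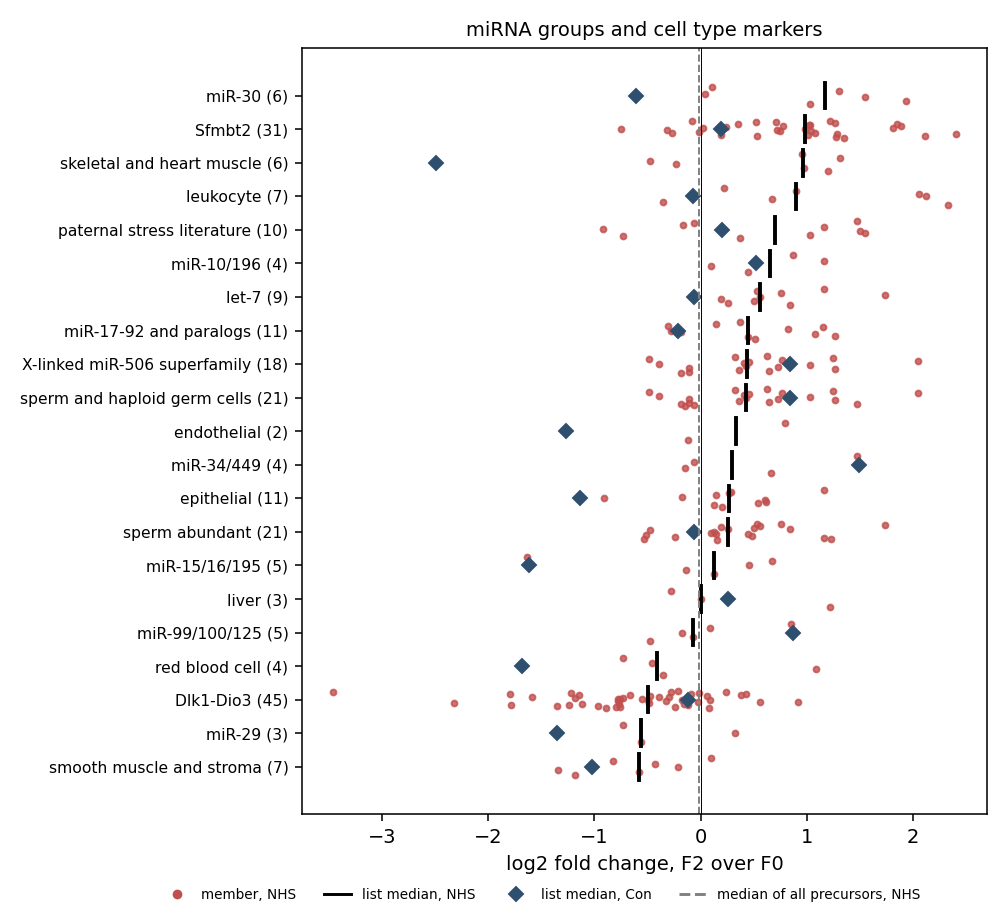
log2 fold change of F2 over F0 for the members of 21 miRNA lists, with the number of tested members in brackets; red points are members in the NHS line, black bars their median, blue diamonds the median of the same members in the control line, and the dashed line the median of all precursors in the NHS line. The miR-30 and Sfmbt2 lists have the highest NHS medians, at 1.17 and 0.99, and the smooth muscle list the lowest, at -0.58.

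Marker lists of other cell types were read to check the labelled sperm. The defining markers of smooth muscle and stroma, red blood cells, leukocytes, endothelium, skeletal muscle and liver were all detected in the 6 libraries, beside miRNAs of haploid germ cells at 2.07% to 7.46% of miRNA reads. The smooth muscle and stroma list held 23.3%, 16.1% and 25.9% of miRNA reads in F0 NHS and 13.1%, 9.58% and 11.1% in F2 NHS. Its groups did not overlap, and 6 of 7 members were lower in F2 NHS (median -0.58, 0 called by edgeR or DESeq2, 7 of 7 by library totals). Without F0 NHS replicate 3 the count was 4 of 7 and the median -0.23. miR-143 alone held 18.4%, 12.5% and 20.4% of miRNA reads in F0 NHS, most of this list. The lack of overlap thus rests largely on 1 precursor. In the control line the list held 16.3%, 43.8% and 13.5% in F0 Con and 11.9%, 9.03% and 6.92% in F2 Con. These did not overlap either, and 6 of 7 members were lower in F2 Con (median -1.03). The leukocyte list held 0.390%, 0.690% and 0.332% in F0 NHS and 1.03%, 1.20% and 0.950% in F2 NHS, also without overlap. In F2 NHS 6 of 7 members were higher (median 0.90, 0 called by edgeR, miR-155 by DESeq2, 5 of 7 by library totals). The control line had no overlap either, at 0.454%, 0.255% and 0.670% in F0 Con and 0.828%, 0.928% and 1.61% in F2 Con. There 3 of 7 members were higher (median -0.08). Among leukocyte members miR-150, a miRNA of mature lymphocytes, stood at 166, 398 and 575 TPM in F0 NHS and at 676, 1593 and 1465 TPM in F2 NHS (2.13, SE 0.70, edgeR adjusted p = 0.204). edgeR called miR-150 higher in the control line, a call lost without any 1 of the 6 Con libraries. Its control log2 fold change was 2.26 to 2.87 in those fits. miR-155 is described above. The part of these cell type markers in the differences of miR-143, miR-155 and the other precursors was not tested.

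The red blood cell list held 4.87% to 6.84% in F0 NHS and 2.79% to 6.31% in F2 NHS. miR-486a and miR-486b of that list are read from opposite strands of 1 locus, and both groups overlapped in each. The epithelial list held 4.23% to 6.02% and 5.90% to 7.32%, with 9 of 11 members higher in F2 NHS (median 0.27, but 4 of 11 and -0.05 by library totals, and 0.18, 0.55 and 0.12 without F0 NHS replicate 2, F0 NHS replicate 3 or F2 NHS replicate 1) and 9 of 11 lower in F2 Con (median -1.14). miR-429 and miR-200a of the miR-200 family overlapped between the NHS groups, at 2189 to 4511 TPM and 2153 to 5361 TPM for miR-429. Skeletal and heart muscle miRNAs held at most 0.358% in any F0 NHS library and 0.135% to 0.354% in F2 NHS. miR-1a and miR-1b, which are near-identical, took very different shares of these reads in different libraries, such as 1.91 TPM and 153 TPM in F0 NHS replicate 1 and 83.1 TPM and 6.05 TPM in replicate 2. miRNAs abundant in sperm in general, a list headed by let-7c, miR-191 and miR-26a, made up 36.4% to 46.3% of miRNA reads in F0 NHS and 48.2% to 51.4% in F2 NHS, without overlap. Of its 21 tested members 16 were higher in F2 NHS (median 0.26), but 10 of 21 by library totals (median -0.07). Shares of the same total are not independent, and miR-143, lower in F2 NHS, is outside this list.

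**Figure D4:**
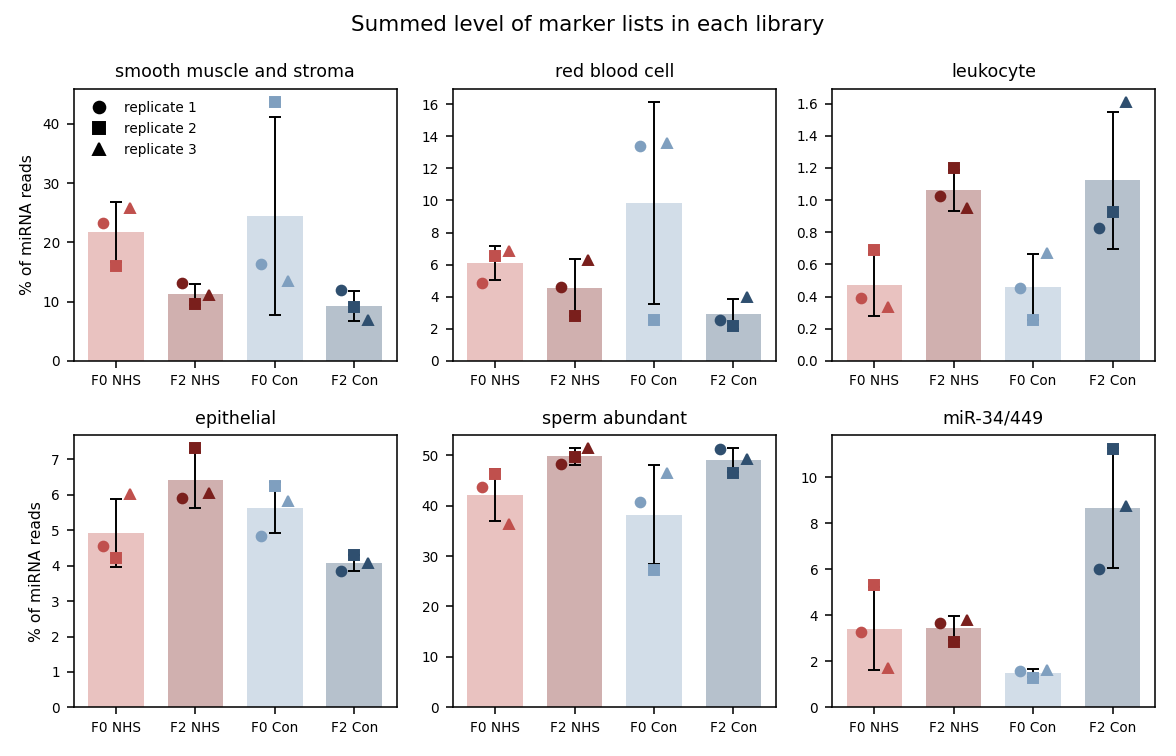
Percent of miRNA reads held by 6 lists in each library; bars are group means, error bars SD of 3 libraries and symbols replicates. The smooth muscle list, most of which is miR-143 in F0 NHS, is lower in all F2 than in all F0 libraries within each line. The leukocyte list is higher in all F2 than in all F0 libraries within each line, and the miR-34 and miR-449 list is high in F2 Con alone.

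The balance of the 2 arms of a precursor, by the deposited arm names, varied widely over the libraries. How reads were assigned to arms was not given in the sources used here. Arm use and arm assignment therefore cannot be told apart. Among 315 precursors with reads for both arms, the 5p to 3p ratio varied more than 4-fold over the 6 NHS libraries in 300, with a median range of 4.41 on the log2 scale, and the arm with more reads was not the same in all libraries for 171. limma called 1 of 315 for F2 NHS against F0 NHS (0.317%; 10 at an unadjusted p under 0.05, 3.17%), miR-195a, a miRNA of the miR-15 and miR-16 family that restrains the cell cycle. Both of its arms are printed because the call concerns their balance.
miR-195a-5p: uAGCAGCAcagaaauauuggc
miR-195a-3p: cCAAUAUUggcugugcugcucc
The 5p arm held 3.31%, 3.79% and 9.80% of miR-195a reads in F0 NHS and 64.5%, 89.9% and 52.6% in F2 NHS. No F2 NHS library was near an F0 NHS library (log2 ratio difference 5.63, SE 1.13, limma adjusted p = 0.0494). The control line had a like shift, from 6.71%, 13.0% and 6.24% to 81.6%, 61.7% and 37.2%. The call was lost on leaving out any 1 of the 6 NHS libraries. miR-191 did not pass and had the opposite direction, with 79.1% to 80.6% of its reads from the 5p arm in F0 NHS and 22.6% to 36.1% in F2 NHS, and its control libraries spread from 10.3% to 87.6%. For miR-26a the 5p arm held 84.4%, 84.1% and 6.44% in F0 NHS and 89.5%, 12.1% and 90.1% in F2 NHS, so libraries of 1 group were at both ends. let-7a had 2.18% to 3.72% from the 5p arm in all but F2 NHS replicate 1, at 43.4%. miR-34b and miR-143 kept 1 arm throughout, the 3p arm, with 0.26% to 3.12% of miR-34b reads from the 5p arm.

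Known miRNAs made up 43.6% ± 8.29 of all reads in F0 NHS and 34.4% ± 3.89 in F2 NHS (SD, n = 3 each; exact permutation test, two-sided p = 0.2, adjusted over 4 classes 0.4). The difference of -9.25 percentage points was -4.73 without F0 NHS replicate 3. Predicted miRNAs made up 0.443% ± 0.0687 and 0.487% ± 0.262 (exact p = 0.8), predicted siRNAs 0.0394% ± 0.00811 and 0.0302% ± 0.00559 (exact p = 0.2) and predicted piRNAs 1.15% ± 0.185 and 1.34% ± 0.257 (exact p = 0.4). With 3 libraries against 3 the smallest p this test allows is 0.1.

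edgeR called 0 of 266 predicted miRNAs for F2 NHS against F0 NHS (0.0%), with 15 at an unadjusted p under 0.05 (5.64%) and 0 by DESeq2. In data simulated with the dispersion of the real libraries, edgeR recovered 2 of 44 changed 4-fold and 33 of 44 changed 16-fold. Predicted miRNAs are hairpins the authors inferred from reads. Of the 266, 34 lay in a coding exon and 45 in a UTR on the same strand. The mature sequence of at least 16 occurred without a mismatch in a transcript of a structural RNA gene, nuclear tRNA genes not being searched. The sequences of the 3 with the smallest p and of 1 more that differed between the lines follow, from the authors' files, with bases 2 to 8 in capitals.
novel_mir612: gGGGCCUCgcuccacccccca
novel_mir3852: aAGGGAGCcuggaacagac
novel_mir409: cUGGGCAUcggguugggug
novel_mir4212: gGGCGGGCggggccgggggu
novel_mir612 (chrX:73659265-73659309, minus strand, UTR of the kinase gene Pnck) stood at 0.540, 2.82 and 43.1 TPM in F0 NHS and at 1.08, 0.604 and 0.423 TPM in F2 NHS. Only F0 NHS replicate 3 was far from the rest (log2 fold change -5.06, SE 1.40, edgeR adjusted p = 0.600). novel_mir3852 (chr6:21772775-21772819, minus strand, coding exon of the tetraspanin gene Tspan12) was at 0.567 to 2.59 TPM in F0 NHS and at 0.0385 to 0.121 TPM in F2 NHS without overlap (-3.84, SE 1.37, edgeR adjusted p = 0.609). Of the 266 predicted miRNAs, 13 (4.89%) lay wholly below in F2 NHS in this way. novel_mir409 (chr3:90252121-90252195, plus strand, coding exon of the zinc transporter gene Slc39a1) was at 1.89 to 20.3 TPM and 1.77 to 3.82 TPM. Its mature sequence belongs to 4 predicted precursors.

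The difference of the steps between the lines was called for 2 of 266 predicted miRNAs (0.752%), with 20 at an unadjusted p under 0.05 (7.52%). novel_mir4212 (chr7:109865617-109865693, minus strand, UTR of Scube2) stood at 1.91, 2.55 and 0.662 TPM in F0 NHS and at 0.578, 0.483 and 0.0769 TPM in F2 NHS, and at 35.1, 34.3 and 110 TPM in F0 Con and 0.586, 0.664 and 0.230 TPM in F2 Con. F0 Con was far above the other 3 groups. The log2 fold change was -1.89 (SE 0.76) in the NHS line and -7.16 (SE 0.95) in the control line, a difference of 5.27 (SE 1.11, edgeR adjusted p = 0.0308). novel_mir5279 stood at 1.04, 0.815 and 0.473 TPM in F0 NHS and at 0.655, 3.34 and 1.73 TPM in F2 NHS, with overlap. F2 Con had no reads of it and F0 Con had 0.401 TPM ± 0.312 (SD, n = 3), so the control step is at least 2.96-fold lower against a floor of 3 counts in each F2 Con library, or 1.68-fold without F0 Con replicate 3. The fitted difference of 7.84 (SE 1.603, edgeR adjusted p = 0.0308) depends on how the fit treats those zeros. Both calls were lost on leaving out singly any F0 NHS library, F2 NHS replicates 1 and 2, F0 Con replicate 3 and F2 Con replicates 2 and 3, and novel_mir5279 was lost also without F2 NHS replicate 3.

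edgeR called 0 of 65 predicted siRNAs (0.0%), with 3 at an unadjusted p under 0.05 (4.62%) and 1 by DESeq2, novel_sir2660. It stood at 6.12, 18.6 and 26.1 TPM in F0 NHS and at 3.74, 1.57 and 0.346 TPM in F2 NHS (log2 fold change -3.94, SE 1.09, edgeR adjusted p = 0.150). Its groups did not overlap, nor did those of the control line, at 5.95 to 38.5 TPM and 1.03 to 2.38 TPM. Of the 65 predicted siRNAs, 3 (4.62%) lay wholly below in F2 NHS. novel_sir16824 had 1 read in the F0 NHS libraries together and 36 in F2 NHS, and novel_sir2529 stood at 0.917 to 19.6 TPM and 0.563 to 4.16 TPM. In data simulated with the dispersion of the real libraries, edgeR recovered 2 of 10 predicted siRNAs changed 16-fold. Few changes of that size could thus be called in this class.

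edgeR also called 0 of 1114 predicted piRNAs (0.0%), with 37 at an unadjusted p under 0.05 (3.32%) and 4 by DESeq2. In data simulated with the dispersion of the real libraries, edgeR recovered 0 of 100 predicted piRNAs changed 16-fold. The 0 calls therefore do not show that the groups are alike in this class. The authors placed the predicted piRNAs in repeats, and 752 of the 1114 were in LTR, 326 in LINE and 36 in DNA repeats. Their median length was 21 bases (18 to 34), 180 were 26 to 32 bases long, 342 began with T, and 96 had both features of a piRNA. A transcript of a structural RNA gene held at least 65 of the 1114 without a mismatch. The search covered only structural genes annotated in GENCODE M21, without nuclear tRNA genes, so this count is a lower bound. An entry with no match there can still be a fragment of a structural RNA. The 3 with the smallest p for the NHS step and the 3 for the difference of the steps are printed from the authors' files, since they show what this class contains.
novel_pir402859: tctacggccataccaccctgaacgcgccc
novel_pir543242: ccggggacagtgccaggtggggagttt
novel_pir492943: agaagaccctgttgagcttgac
novel_pir372886: aacgatacagagaagatt
novel_pir790213: attcaccaagcgttggattgttc
novel_pir295434: caaatcccggacgagccccca
novel_pir402859, placed by the authors in an L1 repeat on chromosome 15, occurred without a mismatch in 44 annotated rRNA genes, and novel_pir372886, placed in an ERVK repeat on chromosome 14, in many annotated snRNA genes. novel_pir402859 had no reads in F0 NHS and stood at 4.90, 0.121 and 0.538 TPM in F2 NHS, at least 15.8-fold higher against a floor of 3 counts in each F0 NHS library. Without F2 NHS replicate 1 that bound was 2.81-fold, and replicate 2 was near the floor itself. novel_pir543242 was at 0.0473 to 0.108 TPM in F0 NHS and at 0.732, 8.25 and 2.77 TPM in F2 NHS (log2 fold change 5.31, SE 1.68, edgeR adjusted p = 0.977). novel_pir492943 was at 2.38, 3.74 and 4.54 TPM in F0 NHS and at 0.424, 0.402 and 0.461 TPM in F2 NHS, the tightest F2 NHS values of these (-3.16, SE 1.03, edgeR adjusted p = 0.977).

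For the difference of the steps edgeR called 0 of 1114 predicted piRNAs (0.0%; 87 at an unadjusted p under 0.05, 7.81%, and 19 by DESeq2). novel_pir372886, novel_pir790213 and novel_pir295434 led by p, each at an edgeR adjusted p of 0.200. novel_pir790213 stood at 0.396, 0.170 and 0.425 TPM in F0 NHS and at 1.23, 1.41 and 1.23 TPM in F2 NHS, while the control line went from 2.99 to 11.2 TPM to 0.0836 to 0.804 TPM. novel_pir295434 was at 2.13 to 7.18 TPM and 1.503 to 5.31 TPM in the NHS groups and had no reads in F2 Con, at least 11.9-fold below F0 Con with F2 Con set to 3 counts a library, or 5.29-fold without F0 Con replicate 2.

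By length, predicted piRNA entries of 26 to 32 bases held 6.48%, 3.49% and 5.95% of the reads of that class in F0 NHS and 8.04%, 26.6% and 24.7% in F2 NHS. F2 NHS replicates 2 and 3 also listed the most entries, 85839 and 88896 against 44733 to 59718 in the other 4. Entries of that length that begin with T held 1.52% to 4.19% of class reads in F0 NHS and 2.40%, 9.93% and 15.6% in F2 NHS. In the control line 1 library of 6, F2 Con replicate 3, was also high, at 22.1%, and the others were at 2.20% to 7.63%. These 3 libraries are all of the F2 generation and of the set low in alanine tRNA fragments. This feature was chosen after its values were seen and has no test.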

How the data were processed

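Per the file headers, each library has in 1 deposited table its own list of small RNAs with a count and a TPM value. The deposited counts are whole reads, and the deposited TPM is the count over the library total, times 1000000, without a length term. Further deposited tables give positions and sequences of predicted miRNAs and sequences of predicted piRNAs. The submitters' processing notes name the genome build mm10, and aligner and prediction tools were not given in the sources used here.

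The table ends after 96730 lines. Of the reads of F2 NHS replicates 2 and 3, 35.7% and 40.3% are listed, but known miRNAs and the 3 predicted classes are whole in 16 libraries. Where a list ends early, count over TPM gave the library total. Counts of each class in these 16 libraries were fitted with edgeR 4.0.16 under R 4.3.3 (group means, TMM within the class, quasi-likelihood F test, two-sided), keeping entries of at least 1 TPM in at least 3 libraries. Adjustment was Benjamini-Hochberg per class and contrast, with a threshold of 0.05. DESeq2 1.42.0 was run beside it. Arm ratios used limma 3.58.1 on log2 ratios of 5p to 3p reads with 0.5 added, for precursors with at least 10 reads. Class shares used an exact permutation test (scipy 1.17.1). Floors are 3 counts per library. They cover counting error only: the reads carry no molecular identifiers and are not independent molecules. Annotation was GENCODE M21. Scripts were tested on simulated data.

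The position and sequence of novel_mir5279 are not reported here. The members and lists were chosen with earlier results of these data known. Named precursors were those called, the 10 with the smallest p besides, the 10 most abundant and the first 3 by mean TPM of each list. For predicted classes, arm ratios and step differences they were the entries called or, with none, the 3 with the smallest p. Alternatives were other scalings, filters, sets of libraries, a replicate block, a term for the 2 sets of libraries by alanine tRNA fragments and leaving out each replicate. The other edgeR scalings, filters and sets of libraries were run for the NHS step alone.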

Additional observations from a re-analysis of the deposited data

Results flagged for a closer look

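The step from F0 to F2 differed between the NHS line and the control line for 2 predicted miRNAs by the direct test of that difference (edgeR, adjusted p = 0.0308 for each). novel_mir4212 had a difference of 5.27 on the log2 scale and was at 34.3 to 110 TPM in F0 Con. It was at 0.0769 to 2.55 TPM in the NHS libraries and at 0.230 to 0.664 TPM in F2 Con, so F0 Con alone stood apart. novel_mir5279 had a difference of 7.84, with 0 reads in all 3 F2 Con libraries and 0.473 to 3.34 TPM in the NHS libraries. Outliers within a group were not tested, since the groups have 3 libraries.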

How the results depend on the processing

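For F2 NHS against F0 NHS in known precursors edgeR's 1 call became 0 with library totals, class totals without TMM, a filter of a mean of 1 TPM over the 6 libraries, the 6 NHS libraries alone, arms and copies as deposited, or only the libraries low in alanine tRNA fragments, an alternative chosen after seeing the data. It became 15 by DESeq2 and 3 with the alanine tRNA set as a covariate. For the control step DESeq2 gave 98 and for the difference of steps 41, and the covariate gave 1 for the latter. Predicted miRNAs had 16 (control step) and 9 (difference) by DESeq2 and 10 and 6 with the covariate. Predicted siRNAs of the NHS step had 1 by DESeq2, 2 with the covariate and 3 in the low libraries; predicted piRNAs had 4 by DESeq2 and 1 in the low libraries. Predicted piRNAs had 87 (control step) and 19 (difference) by DESeq2 and 30 and 7 with the covariate. The arm ratio gave 0 with the 6 NHS libraries alone.

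Leaving out 1 library at a time gave 0 to 2 calls for known precursors in the NHS step, 3 to 16 in the control step and 0 to 30 for the difference, the highest without F2 NHS replicate 1 and 12 without F0 NHS replicate 3. The ranges were 1 to 9 for predicted miRNAs in the control step, 0 to 3 for their difference, 0 to 2 for the difference of predicted piRNAs and 0 to 0 for the arm ratio. Same-numbered F0 and F2 NHS libraries did not deviate together (correlations -0.002, 0.035 and -0.008). The labels state no pairing by number, and these values, from 3 libraries in each group, cannot exclude it. With the replicate block, calls were 0 for known precursors in the NHS step, 1 for predicted miRNAs in the control step, 0 for their difference and 0 for the arm ratio.

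Among 69 tested values of named precursors, 46 values under the alternatives other than leaving out 1 library had another sign than the reported one, in 21 precursors, as did 42 values on leaving out 1 library, in 25 precursors; none of these passed in either fit. The cause of these shifts was not tested. Entries of a few reads per library are limited by depth.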

Other observations

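Other families had 0 members called by edgeR for F2 NHS against F0 NHS, and DESeq2 called miR-497a. Of the miR-17-92 cluster and its paralogs, which drive proliferation, 8 of 11 tested precursors were higher in F2 NHS (median 0.45, 6 of 11 by library totals, and medians of 0.24, 0.26 and 0.29 without F0 NHS replicate 2, F2 NHS replicate 2 or F0 NHS replicate 1), and of miR-99, miR-100 and miR-125 members 2 of 5 were higher (median -0.07, 1 of 5 by library totals). In the miR-15, miR-16 and miR-195 family 3 of 5 tested precursors were higher and 2 lower in F2 NHS, and by library totals 2 higher and 3 lower. miR-16 stood at 4947, 5265 and 8904 TPM in F0 NHS and at 2280, 9250 and 8808 TPM in F2 NHS, while miR-497a, from the cluster of miR-195a, stood at 380, 313 and 714 TPM and at 102, 168 and 64.7 TPM without overlap. miR-497a had a log2 fold change of -1.64 (SE 0.49, edgeR adjusted p = 0.151), and in the control line it fell by 2.47 (SE 0.51, edgeR adjusted p = 0.0141), a call lost without any 1 F2 Con library. In the miR-29 family, which silences collagen genes, F0 NHS replicate 3 was far above all other NHS libraries for miR-29a, at 6289 TPM against 790 to 2086 TPM. The 4 members of the miR-10 and miR-196 family, which lie in Hox clusters, were all higher in F2 NHS (median 0.66, range 0.10 to 1.17; 3 of 4 by DESeq2 and by library totals; median 0.38 without F0 NHS replicate 2). miR-10b was at 2700, 2048 and 10950 TPM in F0 NHS and at 2120, 5199 and 4750 TPM in F2 NHS.

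F0 NHS replicate 3 was also the highest NHS library for the endothelial miRNA miR-126a, at 6651 TPM against 477 to 2707 TPM, for miR-145a, at 11979 TPM against 1679 to 3270 TPM, and for miR-133a of muscle, at 1313 TPM against 128 to 690 TPM. miR-122, a liver miRNA, stood at 190 TPM in F2 NHS replicate 1 and at 11.99 to 68.1 TPM in the other 5. Besides miR-497a and the 11 precursors with the smallest p, DESeq2 called miR-491 (log2 fold change -2.01, DESeq2 adjusted p = 0.0363), miR-3473e (-3.10, 0.0472) and miR-376a (-2.43, 0.0472), named here because DESeq2 called them.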
